A study of Nasturtium officinale with 24 samples.

Results

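The comparison asked where stems and petioles of watercress (Nasturtium officinale) responded differently to submergence, averaged over the first and the second day under water. It used all 24 of the 24 libraries of the series, chosen by their labels alone. For each transcript contig, the change of the petiole (the leaf stalk) between submerged and air-kept plants was subtracted from the change of the stem, with equal weight for 1 day and 2 days. This quantity, the interaction of tissue and treatment, is given as a log2 difference, so a positive value means a more positive change in stem.

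RNA sequencing measured transcript levels in 8 groups with 3 libraries each: stems under water and stems in air after 1 day, the same after 2 days, and petioles in the same treatments and days. All plants were about 3 weeks old and grew in short days, no line or transgene is named, and each library came from a pool of 5 plants. The plants kept in air stood in tubs like those used for submergence. The labels describe 3 replicates without saying whether they were grown or submerged apart, so the p-values measure the spread between these pools. Whether equally numbered stem and petiole libraries share plants is not labelled either, and the test treated all libraries as separate.

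Watercress belongs to the cabbage family and lives in and beside running water. Gases move slowly in water, so a submerged shoot traps ethylene and runs short of oxygen and of carbon dioxide for photosynthesis. In flowering plants, low oxygen stabilises a group of ethylene response factors that turn on fermentation genes, and trapped ethylene together with less abscisic acid and more gibberellin action can drive elongation towards the surface. Watercress is known for elongating its stems under water while growth of its petioles is held back.

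The measured features were contigs that the files name by accession only. The files pair no contig with a gene, so neither tissue markers nor pathway genes could be looked up, and the labelled tissues were not checked against markers. Library totals ranged from 17617430 to 48928331 estimated counts. Of 80741 contigs, 53919 passed the filter on low counts and were tested. Replicates of a group had a correlation of log2 CPM (counts scaled to a common library total) between 0.8861 and 0.9769. In the 17744 contigs whose mean log2 CPM reached 3 or more, the median SD of log2 CPM between replicates was 0.138 to 0.164 in stem groups and 0.175 to 0.255 in petiole groups. Replicate 1 of petioles under water at 1 day stood apart from its group and received the lowest quality weight of the 24 libraries, 0.353 against a highest of 3.19. The lowest replicate correlation, 0.8861, was however in petioles in air at 1 day, against 0.8868 in petioles under water at 1 day. The deviations of this replicate 1 correlated with those of replicate 1 of petioles in air (0.523 at 1 day, 0.37 at 2 days). The main counts of contigs are also given from a fit without this library alone, which tested 55075 contigs. That fit kept replicate 1 of petioles in air, so a deviation shared with it could no longer cancel between the treatments. Its counts are therefore an alternative and not a corrected version, and the part of such a deviation was not tested. The library was singled out after seeing the data, and of the 24 single omissions it gave the most called interactions.

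Averaged over both days, 1292 contigs responded differently in stem and petiole, 2.4% of those tested (edgeR quasi-likelihood test, Benjamini-Hochberg adjusted p under 0.05). The interaction was positive for 551 contigs (1.02% of those tested) and negative for 741 (1.37%). Without the petiole library that stood apart, 2315 contigs were called, 1167 positive and 1148 negative. The balance of signs also depended on scaling. Positive interactions made up 42.6% with TMM factors, 54.1% with RLE size factors, 51.1% with upper-quartile factors and 23.8% with library totals alone. Library totals alone moved the median interaction of all contigs to -0.121, against -0.033 with TMM factors. Because whole tissues were sampled, fewer cells of a type and less RNA per cell cannot be told apart in any of these changes.

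Contigs with a called interaction were few beside those with a called response to submergence. Submergence raised 8542 contigs (15.8% of those tested) and lowered 8951 (16.6%) in stems, together 32.4%. In petioles it raised 11629 (21.6%) and lowered 11231 (20.8%), together 42.4%. The fit used a common estimate of spread for all groups of a contig, although replicates varied more in petioles. Without library quality weights, limma-voom called 19770 contigs in stems and 22561 in petioles. With these weights, chosen after seeing the data, limma-voom called 23370 contigs in stems and 24358 in petioles. Of the 26132 contigs called in either tissue, the 1292 with a called interaction were 4.94%. The interaction subtracts 2 responses, so its error is larger than theirs, and the other contigs were not shown to respond alike. At an unadjusted p under 0.05 (edgeR) there were 7551 interactions. In both tissues 7070 contigs rose and 7033 fell, while 118 were called with opposite signs, 115 of them with a called interaction. Among the 17744 more abundant contigs, 2112 changed at least 2-fold in stems and 3008 in petioles, and the petiole had the larger change for 11606 of them (65.4%). A 2-fold change was counted here by its fitted size without a test. Without the petiole library that stood apart, 18254 contigs were called in stems, 23806 in petioles and 27174 in either tissue, of which 7124 rose and 7638 fell in both and 124 had opposite signs. The more abundant contigs then had 2112 changes of at least 2-fold in stems and 3514 in petioles, with the larger change in the petiole for 69.5%.

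The median size of a called interaction was 1.11 on the log2 scale and the smallest was 0.33. At least a 2-fold difference between the tissues was fitted for 748 of the 1292 contigs and at least a 4-fold difference for 238. These are fitted sizes of contigs chosen on the same counts, without a test of the size. An edgeR test against a bound of 1.5-fold called 174 contigs, 51 positive and 123 negative. In 58 of the 1292 contigs all 3 libraries of some group stood at 0 rounded counts, where a fitted change is not a measured size. With those groups set to a floor of 3 counts per library the median was 1.09, and 734 and 209 contigs passed 2-fold and 4-fold. The fitted counts were 1258 and 373 of 2315 without the petiole library that stood apart.

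The 1292 contigs were sorted by the tissue with the larger change and by the direction of that change. This sorting adds no test, because it uses the changes that make up the interaction. The stem changed more in 320 contigs, of which 126 rose (9.75% of the 1292) and 194 fell (15%). The petiole changed more in 972 contigs, of which 547 rose (42.3%) and 425 fell (32.9%). The petiole therefore had the larger change in 75.2% of the contigs. This share lay between 74.7% and 76.1% under the other 3 scalings. Among the 17744 more abundant contigs, called or not, it was 65.4%, so a petiole lead was not particular to contigs with an interaction. The sizes of these shares are not directly comparable, because 536 of the 1292 contigs were less abundant. No share was computed over all contigs tested. Replicates also varied more in petioles, and the part of this in the shares was not tested. Without the petiole library that stood apart, the numbers were 145 and 260 for the stem and 888 and 1022 for the petiole. The petiole share was then 82.5%, against 69.5% of the more abundant contigs in that fit.

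**Figure D1:**
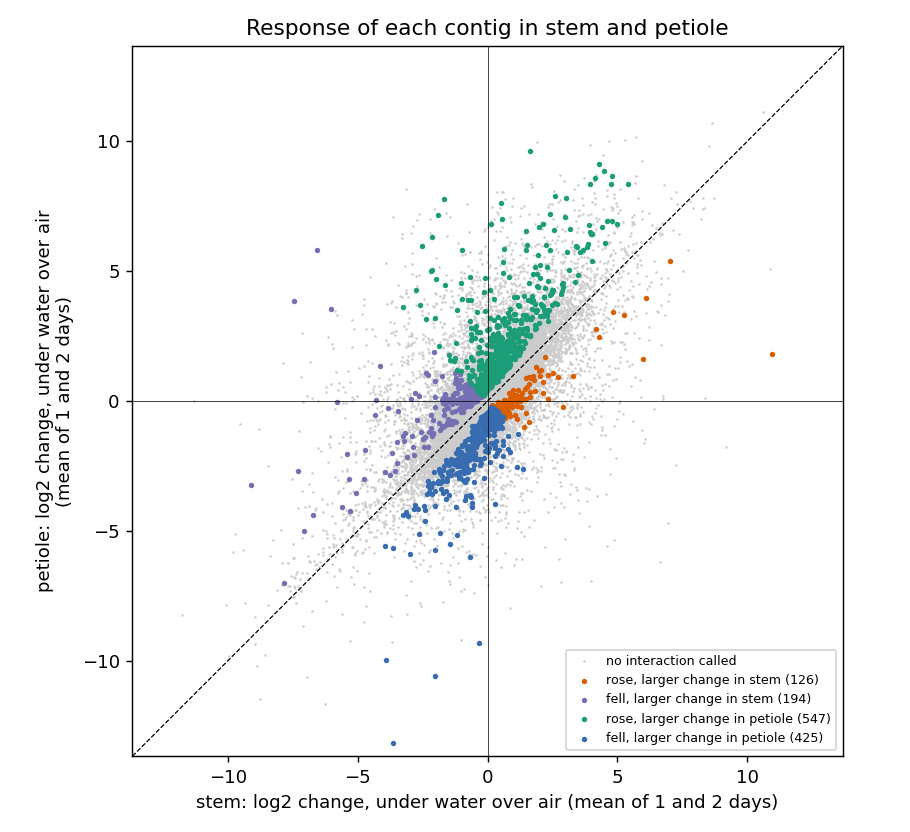
Log2 change under water over air in the stem (horizontal) and in the petiole (vertical), each the mean of 1 and 2 days, for the 53919 contigs tested. Coloured points are the 1292 contigs with a called interaction, and on the dashed line both tissues change alike: 320 coloured contigs have the larger change in the stem and 972 in the petiole.

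The 126 contigs that rose more in stem were mostly lower in stem than in petiole in air. Their median log2 change was 0.86 in stems (quartiles 0.58 and 1.48) and -0.08 in petioles (quartiles -0.30 and 0.32). In petioles 31 of them rose, 21 fell and 74 were not called. Under water 51 were higher in stem and 40 higher in petiole, where 13.6% and 13.9% of all contigs were called. In air 8 were higher in stem and 84 higher in petiole, where 10% and 9.69% of all contigs were called.

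Their summed abundance in TPM, a unit per transcript length, gives the same order and describes the contigs without testing them, since they were chosen on these counts. In stems the sum was 8689, 7551 and 8863 TPM under water and 3635, 3244 and 3883 TPM in air after 1 day, and 6954, 7338 and 7948 TPM under water and 3639, 3733 and 3261 TPM in air after 2 days. In petioles it was 6111, 7105 and 7160 TPM under water and 5023, 5668 and 6080 TPM in air after 1 day. After 2 days the petiole sums were 6089, 5898 and 7167 TPM under water and 6124, 6140 and 5857 TPM in air. Submerged and air-kept stems did not overlap on either day, whereas the petiole groups overlapped after 2 days.

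The 194 contigs that fell more in stem were more often higher in stem than in petiole in air, and more often lower under water. Their median log2 change was -1.19 in stems (quartiles -2.12 and -0.72) and 0.05 in petioles (quartiles -0.71 and 0.30). In petioles 34 rose, 55 fell and 105 were not called. Under water 11 were higher in stem and 134 higher in petiole, and in air 78 were higher in stem and 26 higher in petiole. The summed abundance averaged 2760 ± 108 TPM in submerged stems and 7647 ± 735 TPM in air-kept stems after 1 day (SD, n = 3 each). After 2 days it was 3487 ± 245 TPM in submerged stems and 6747 ± 198 TPM in air-kept stems. Petioles averaged 4185 ± 320 TPM under water and 5290 ± 550 TPM in air after 1 day, and 5664 ± 272 TPM under water and 5303 ± 724 TPM in air after 2 days.

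The 547 contigs that rose more in petiole formed the largest class with TMM factors and all libraries, a rank that depended on scaling. With RLE size factors 415 rose and 520 fell more in petiole, and with upper-quartile factors 458 rose and 508 fell. Without the petiole library that stood apart, 888 rose and 1022 fell. The median log2 change of the 547 contigs was 0.51 in stems (quartiles 0.01 and 1.18) and 1.94 in petioles (quartiles 1.21 and 3.24). In 37 of them some group stood at 0, and with those groups at the floor the petiole median was 1.80. In stems 286 of them rose, 36 fell and 225 were not called. Under water 28 were higher in stem and 378 higher in petiole, while in air 263 were higher in stem and 36 higher in petiole. The order of the tissues turned, with a called difference in each treatment, for 94 of these contigs.

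The summed abundance of these 547 contigs changed order as well. In stems it was 12530, 11330 and 11980 TPM under water and 7407, 5889 and 6838 TPM in air after 1 day, and 14220, 14860 and 12200 TPM under water and 6809, 7678 and 5997 TPM in air after 2 days. In petioles it was 13770, 16930 and 18510 TPM under water and 3878, 3734 and 4612 TPM in air after 1 day, and 18850, 21600 and 19820 TPM under water and 4284, 3923 and 4944 TPM in air after 2 days. On both days every stem library lay below every petiole library under water, and above every petiole library in air. The petiole library at 13770 TPM is the one that stood apart.

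The 425 contigs that fell more in petiole held more transcripts in petioles than in stems in air. Their median log2 change was -0.27 in stems (quartiles -0.91 and 0.12) and -1.34 in petioles (quartiles -2.38 and -0.76). In stems 185 of them fell, 24 rose and 216 were not called. Under water 268 were higher in stem and 67 higher in petiole, and in air 39 were higher in stem and 178 higher in petiole. Their summed abundance averaged 17320 ± 382 TPM in submerged stems and 24150 ± 2890 TPM in air-kept stems after 1 day, and 17050 ± 434 TPM in submerged stems and 23510 ± 2150 TPM in air-kept stems after 2 days (SD, n = 3 each). In petioles it averaged 17780 ± 530 TPM under water and 35570 ± 5740 TPM in air after 1 day, and 15750 ± 1950 TPM under water and 41740 ± 6830 TPM in air after 2 days. Under water the ranges of the tissues overlapped on both days, whereas in air every petiole library lay above every stem library.

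**Figure D2:**
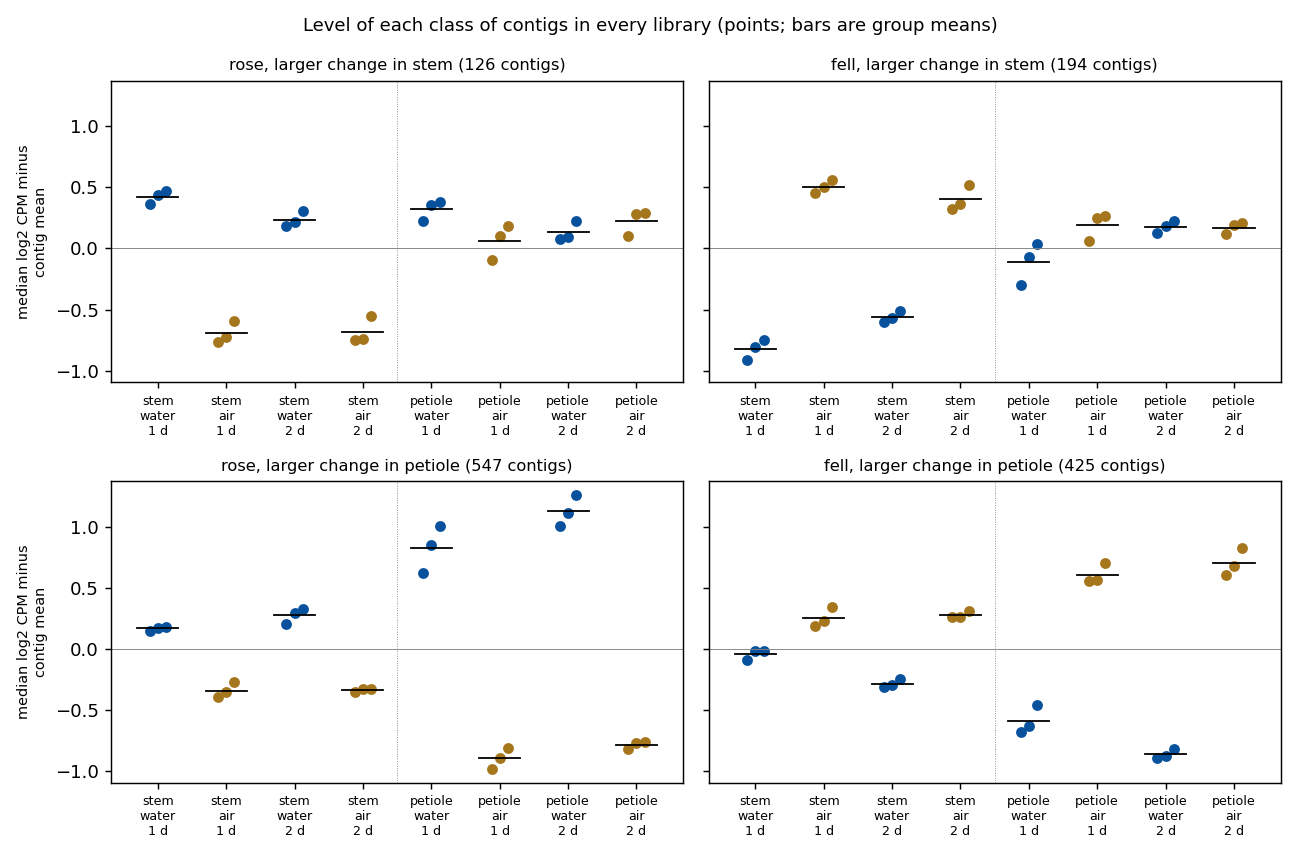
Each point is 1 library: the median over a class of the log2 CPM of a contig minus its mean over all 24 libraries, with blue for under water and brown for air, and bars for group means. The classes that rose or fell more in stem (126 and 194 contigs) move mainly in the left part of their panels, and those that rose or fell more in petiole (547 and 425 contigs) mainly in the right part.

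The same interaction can be read as a tissue difference that submergence altered. Stem and petiole differed for 14846 contigs under water (27.5% of those tested) and for 10627 contigs in air (19.7%). Of the 1292 contigs with an interaction, 579 differed between the tissues only under water, 314 only in air, 398 in both treatments and 1 in neither. Of those that differed in both, 143 had turned their order, 109 had the same order with a wider gap under water, and 146 had the same order with a narrower gap. Without the petiole library that stood apart, 1261 of 2315 differed only under water, 431 only in air, 612 in both treatments and 11 in neither, and of the 612, 187 had turned, 268 had widened and 157 had narrowed. Over all 53919 contigs tested, with all libraries, 7683 differed only under water, 3464 only in air and 35609 in neither. Of all tested contigs that differed in both, 143 had turned, 3810 had a wider gap under water and 3210 a narrower one. The lead of water only over air only was thus not particular to contigs with an interaction. The differences in each treatment are parts of the interaction and describe it without testing it again.

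**Figure D3:**
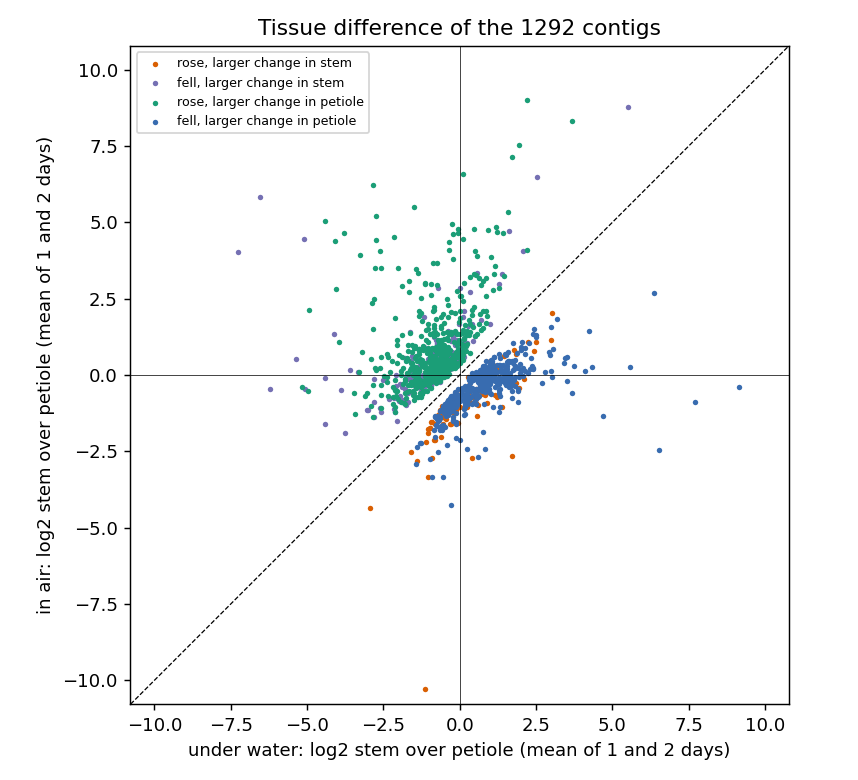
Log2 level of stem over petiole under water (horizontal) and in air (vertical), each the mean of 1 and 2 days, for the 1292 contigs with a called interaction, coloured by class. Contigs near the horizontal zero line had similar fitted levels in air. The 579 contigs with a called difference under water only had none called in air, which does not show equal levels there.

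The contigs described next are the 2 in each class with the largest interaction among those whose mean log2 CPM was 3 or more, with an interaction of the same sign on both days and a called change in the leading tissue. That rule was met by 88 contigs that rose more in stem, 111 that fell more in stem, 263 that rose more in petiole and 294 that fell more in petiole. Values are CPM with TMM-scaled totals.

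GEMC01065084.1 (2945 bases) rose in both tissues and more in stem. In stems it stood at 411, 450 and 589 CPM under water and 6.96, 9.36 and 11 CPM in air after 1 day, and at 154, 205 and 286 CPM under water and 7, 5.39 and 11.1 CPM in air after 2 days. In petioles it stood at 166, 249 and 327 CPM under water and 24.5, 21.6 and 21.7 CPM in air after 1 day, and at 159, 231 and 176 CPM under water and 22.5, 26.2 and 13.5 CPM in air after 2 days. Submerged and air-kept libraries did not overlap in either tissue, and all stems in air lay below all petioles in air. The average log2 change was 5.25 ± 0.25 in stems and 3.32 ± 0.23 in petioles (SE), and the interaction was 1.93 ± 0.30 (edgeR, adjusted p = 0.0015).

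GEMC01018686.1 (752 bases) rose in stems and fell in petioles. Stem libraries held 1290, 793 and 1080 CPM under water and 271, 364 and 458 CPM in air after 1 day, and 589, 585 and 687 CPM under water and 313, 365 and 435 CPM in air after 2 days. Petiole libraries held 99.1, 118 and 144 CPM under water and 134, 196 and 144 CPM in air after 1 day, and 89.5, 77.5 and 89.1 CPM under water and 153, 199 and 161 CPM in air after 2 days. Stems lay above petioles in every group, and the groups of a tissue overlapped only in petioles after 1 day. The log2 change was 1.14 ± 0.15 in stems (edgeR, adjusted p = 5.6e-06) and -0.70 ± 0.15 in petioles (adjusted p = 0.00068), with an interaction of 1.84 ± 0.21 (adjusted p = 5.9e-05).

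GEMC01061347.1 (2780 bases) fell in both tissues, and its counts rounded to 0 in submerged stems at 1 day. The deposited TPM of those libraries was above 0, at most 0.000607. In stems it had 0 counts in all 3 libraries under water and 36.6, 30.7 and 43.4 CPM in air after 1 day, and 18.5, 8.13 and 10.2 CPM under water and 36.2, 29.6 and 35.7 CPM in air after 2 days. In petioles it stood at 0.58, 8.19 and 1.14 CPM under water and 43.4, 62.5 and 50.5 CPM in air after 1 day, and at 16, 14.7 and 23.5 CPM under water and 40.8, 55.9 and 39.5 CPM in air after 2 days. The fall was largest after 1 day in both tissues. Against a floor of 3 counts per library, a mean of 0.0836 CPM, submerged stems at 1 day were at least 442-fold lower than stems in air. The interaction was called (edgeR, adjusted p = 0.028), but the call was lost in 8 of 37 other fits, and over the 37 the adjusted p ranged from 1.5e-05 to 0.33. At 2 days alone the interaction had an adjusted p of 0.99 (edgeR). Its estimated counts were not all whole within 1e-06, so it shares reads with other contigs, and how its reads were split was not tested.

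GEMC01059353.1 (2018 bases) fell in stems, while its change in petioles was not called. In stems it stood at 17.6, 21.1 and 12.4 CPM under water and 127, 176 and 83.7 CPM in air after 1 day, and at 38.1, 67.1 and 50 CPM under water and 91.2, 151 and 97.1 CPM in air after 2 days. In petioles it stood at 56.4, 62.3 and 60.7 CPM under water and 50.6, 67.6 and 100 CPM in air after 1 day, and at 114, 106 and 169 CPM under water and 45, 56.7 and 150 CPM in air after 2 days. The stem groups did not overlap on either day and the petiole groups overlapped on both. The log2 change was -2.02 ± 0.28 in stems and 0.18 ± 0.27 in petioles (edgeR, adjusted p = 0.64), and the interaction was -2.20 ± 0.39 (adjusted p = 0.0039).

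GEMC01015786.1 (975 bases) had the smallest adjusted p of the 8 named contigs and rose far more in petiole. Stem libraries held 17.9, 14.2 and 12.1 CPM under water and 4.68, 5.65 and 5.46 CPM in air after 1 day, and 13.7, 19.3 and 13.1 CPM under water and 5.11, 4.21 and 5.9 CPM in air after 2 days. Petiole libraries held 285, 444 and 526 CPM under water and 5.8, 7.43 and 9.17 CPM in air after 1 day, and 402, 757 and 434 CPM under water and 8.12, 5.83 and 7.98 CPM in air after 2 days. The tissues were close in air and apart under water. The log2 stem over petiole was -4.97 ± 0.21 under water (edgeR, adjusted p = 3.1e-11) and -0.51 ± 0.19 in air (adjusted p = 0.07), so the average interaction was -4.46 ± 0.27 (adjusted p = 2.6e-08).

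GEMC01030224.1 (1390 bases) rose in petioles, where its level in air was far below that of stems in air. Stem libraries had 37.5, 46.9 and 54.2 CPM under water and 67.2, 52.9 and 60.2 CPM in air after 1 day, and 47.6, 39.7 and 41.7 CPM under water and 47.2, 53.8 and 78 CPM in air after 2 days. Petiole libraries had 26.3, 22.8 and 34.4 CPM under water and 4.57, 2.94 and 6.71 CPM in air after 1 day, and 18, 44.8 and 34.6 CPM under water and 2.82, 3.82 and 3.61 CPM in air after 2 days. The gap between the tissues narrowed, with a log2 stem over petiole of 0.57 ± 0.20 under water (edgeR, adjusted p = 0.04) and 3.90 ± 0.23 in air (adjusted p = 1.6e-09). The change in stems was not called (log2 -0.43 ± 0.20, edgeR adjusted p = 0.11), and the interaction was -3.33 ± 0.30 (adjusted p = 4.5e-06). It was the only one of the 8 named contigs whose estimated counts were whole, within 1e-06, in every library.

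GEMC01064411.1 (3245 bases) fell in both tissues and more in petiole. In stems it stood at 25.9, 36.3 and 23.2 CPM under water and 59.3, 53.4 and 62.2 CPM in air after 1 day, and at 42, 44.7 and 47.9 CPM under water and 70.3, 83.5 and 58 CPM in air after 2 days. In petioles it stood at 2.74, 1.58 and 2.36 CPM under water and 22.4, 18.2 and 22.5 CPM in air after 1 day, and at 2.68, 1.34 and 0.548 CPM under water and 24.1, 20.4 and 35.2 CPM in air after 2 days. Stems lay above petioles in both treatments and the gap was wider under water. The log2 stem over petiole was 4.24 ± 0.24 under water and 1.44 ± 0.21 in air, and the interaction was 2.80 ± 0.31 (SE; edgeR, adjusted p = 4.5e-05).

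GEMC01064667.1 (1321 bases) fell in petioles, where its level in air was above that of stems in air. Stem libraries had 36.3, 182 and 27.5 CPM under water and 19.9, 28.4 and 28.6 CPM in air after 1 day, and 27.4, 28.1 and 24 CPM under water and 27.1, 26.6 and 29.6 CPM in air after 2 days. Petiole libraries had 30.5, 43.3 and 43.8 CPM under water and 127, 141 and 142 CPM in air after 1 day, and 39.8, 36.4 and 44.5 CPM under water and 150, 136 and 157 CPM in air after 2 days. The petiole groups did not overlap on either day, whereas a submerged stem library at 182 CPM stood far above the other stems. The interaction was 2.64 ± 0.43 (edgeR, adjusted p = 0.0023) with all libraries. It was 1.96 (edgeR, adjusted p = 4.3e-06) without that stem library, replicate 2 at 1 day.

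**Figure D4:**
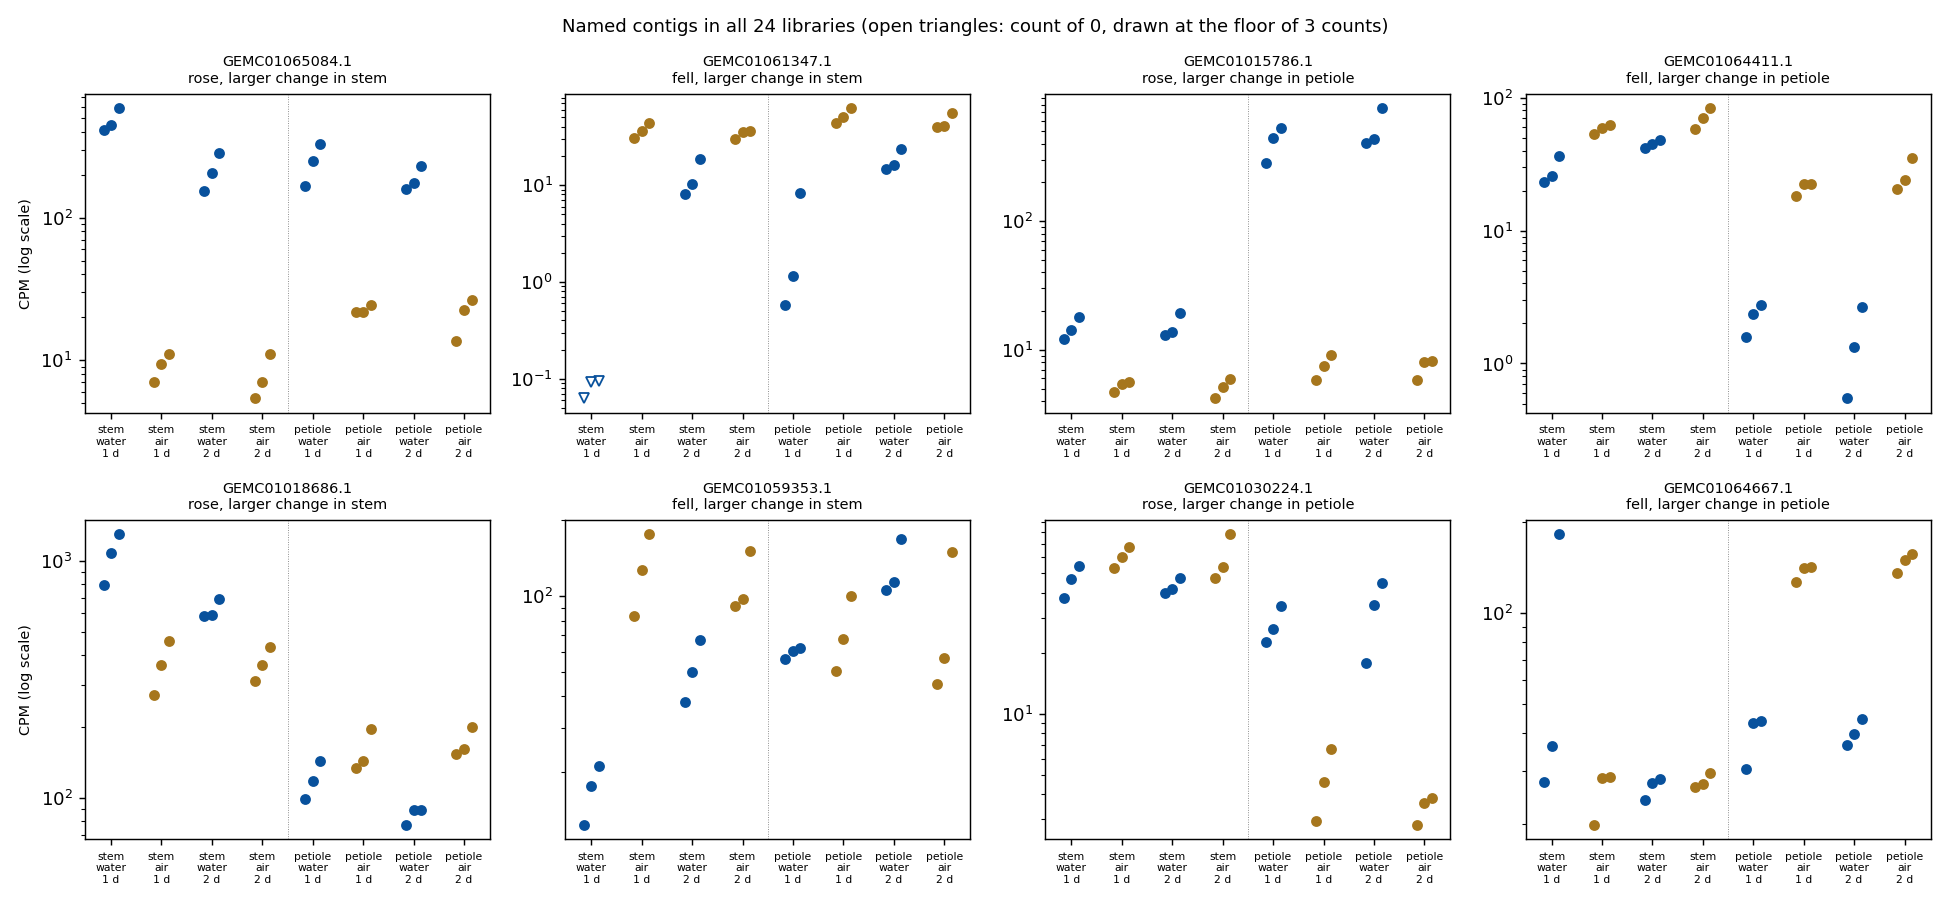
CPM on a log axis of the 8 named contigs in all 24 libraries, stems left and petioles right of the dotted line, blue for under water and brown for air, with open triangles at the floor of 3 counts for libraries at 0. For GEMC01015786.1, stems under water hold 12.1 to 19.3 CPM and petioles under water 285 to 757 CPM.

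The interaction was also tested on each day alone. The average called 942 contigs that neither day called alone, along with 301 of the 326 contigs called at 2 days (0.605% of those tested) and 117 of the 119 called at 1 day (0.221%). With the petiole library that stood apart left out, 465 contigs were called at 2 days and 299 at 1 day. The interaction had the same sign on both days for 1289 of the 1292 contigs, a share that the choice by the average largely fixes. Over all contigs tested it had the same sign for 32757 of 53919 (60.8%). The median interaction of the contigs that rose more in stem was 1.00 at 2 days and 0.89 at 1 day, and that of those that fell more in stem was -1.08 at 2 days and -1.01 at 1 day. The contigs that rose more in petiole had medians of -1.30 at 2 days and -1.24 at 1 day, and those that fell more in petiole had 1.13 at 2 days and 0.85 at 1 day. The interaction at 2 days was the larger in size for 780 of the 1292 contigs. The same count was not made over all contigs tested, so no change between the days is read from it.

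A direct test of the day difference of the interaction called 0 contigs (0%; edgeR, lowest adjusted p = 0.771). At an unadjusted p under 0.05 there were 2013 contigs. DESeq2 called 59 and limma-voom called 0. Leaving out the petiole library that stood apart, edgeR called 1. A change of the tissue difference between the days was thus not detected for any contig by edgeR with all libraries, which does not show that the days were alike.

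**Figure D5:**
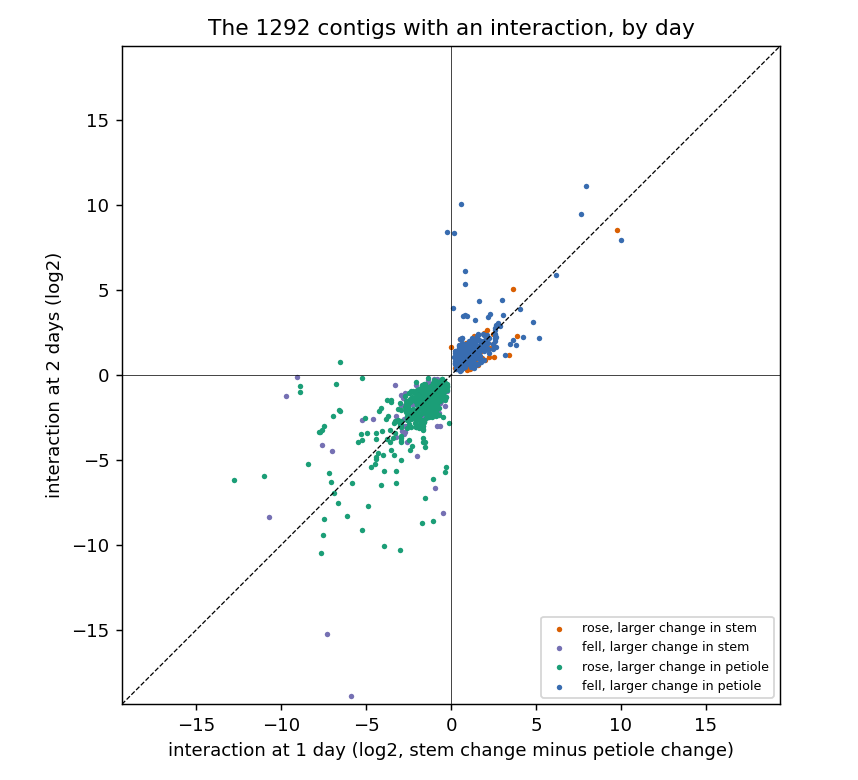
Interaction (stem change minus petiole change, log2) at 1 day (horizontal) and at 2 days (vertical) for the 1292 contigs with a called average interaction, coloured by class. Of these, 1289 lie in the quadrants with the same sign on both days.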

How the data were processed

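Per the labels' protocols, non-strand-specific BrAD-seq libraries were sequenced from both ends. kallisto, edgeR and limma are named in the submitters' processing notes. Versions, transcriptome and filters on reads were not given in the sources used here. Every deposited file gives length, effective length, estimated count and TPM per contig. The estimated counts, as deposited, are not normalised, need not be whole, and split reads among similar contigs, so near-identical contigs are uncertain. The deposited TPM values sum to a fixed total, and were used only to describe levels.

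Estimated counts were rounded. Contigs were filtered with filterByExpr (minimum count 10, minimum total 15), scaled with TMM and fitted with edgeR 4.0.16 (quasi-likelihood, 8 group means, all 24 libraries). P-values were two-sided and Benjamini-Hochberg adjusted over 53919 contigs, with a threshold of 0.05. SEs were derived from the F statistic. Alternatives used DESeq2 1.42.0, limma 3.58.1, other scalings, filters and designs, and each library left out. Code was tested on simulated data. A floor of 3 counts was 0.063 to 0.176 CPM per library, and covers counting error only.

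The 2 contigs with the largest interaction were named in each of 4 classes, among those whose mean log2 CPM was 3 or more, with the same sign on both days and a called change in the leading tissue. The day difference called no contig to name. The comparison and the lists were chosen with earlier results of these data known, and lists of plant genes and tissue markers could not be used because no file names genes.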

Additional observations from a re-analysis of the deposited data

Results flagged for a closer look

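The responses of stem and petiole to submergence differed for 1292 contigs by the test of the difference itself. Among the named contigs, the average interaction was 1.93 for GEMC01065084.1, 1.84 for GEMC01018686.1, 2.80 for GEMC01064411.1 and 2.64 for GEMC01064667.1 on the log2 scale. It was -2.20 for GEMC01059353.1, -4.46 for GEMC01015786.1 and -3.33 for GEMC01030224.1. For GEMC01061347.1, with all 3 submerged stem libraries at 0 rounded counts after 1 day, the adjusted p of the interaction was 0.028 (edgeR). No size is given for it.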

How the results depend on the processing

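Of the 8 named contigs, 7 kept their interaction and its call in each of 37 other fits, and GEMC01061347.1 kept its sign and lost the call in 8. The named contigs were chosen for large called interactions in these same counts, and 24 of the 37 fits only left out 1 library. A kept call is therefore not independent support. DESeq2 called 2737 interactions (1470 positive, 1267 negative) and 59 day differences, and limma-voom with library quality weights, an alternative chosen after seeing the data, called 2839 (1320 and 1519). An added bound of 1.5-fold left 174 interactions (51 and 123), 5926 stem responses and 10030 petiole responses, as its construction requires. Library totals alone gave 1182 negative interactions, with 895 contigs that rose and 264 that fell more in petiole, against 741, 547 and 425; the cause was not tested.

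Leaving out 1 library gave 867 to 2315 interactions, 374 to 1167 positive and 475 to 1148 negative, 0 to 1 day differences, 15436 to 18254 stem responses and 20882 to 23806 petiole responses. The highest numbers of interactions came when submerged petiole replicate 1 of 1 day was left out, with 888 contigs that rose and 1022 that fell more in petiole. The negative count was 475 without submerged petiole replicate 1 of 2 days, 493 without submerged petiole replicate 2 of 1 day, 482 and 484 without replicates 1 and 3 of stems in air at 1 day, and 484 without replicate 3 of stems under water at 2 days. A single day difference was called without submerged petiole replicate 1 or 3 of 1 day or air-kept petiole replicate 1 of 2 days.

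With the replicate number as a block 1285 interactions were called, 1143 of them among the 1292. Deviations of same-numbered libraries correlated above 0.1 in all 3 pairs for 3 of 28 pairs of groups, all of petioles: under water and in air at 1 day (0.523, 0.186 and 0.384), under water and in air at 2 days (0.111, 0.253 and 0.174), and in air at 1 and 2 days (0.406, 0.23 and 0.289). No pair of stem groups and no pair across tissues met this. A library correlated best with its own number in 65 of 168 comparisons, each a choice among 3 numbers. With a separate replicate block within each tissue, chosen after seeing these values, 1651 interactions were called (818 positive, 833 negative), 1160 of them among the 1292, with 0 day differences, 18457 stem responses and 23454 petiole responses. Depth was not varied, so its part in the lower share called at low abundance was not tested.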

Other observations

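The share of contigs with a called interaction followed abundance. It was 0.824% of 16146 contigs with a mean log2 CPM under 0, where the median SE of the interaction was 0.82, and 1.77% of 12966 contigs between 0 and 2. It was 4.5% of 8606 contigs between 4 and 6 (median SE 0.16) and 6.45% of 310 contigs at 8 or more. The median length was 1120.5 bases for the 1292 contigs and 1034 bases for all contigs tested. Estimated counts were whole, within 1e-06, in every library for 25.9% of the 1292 and 24.2% of all tested. Of the 1292 contigs, 216 had an accession number next to that of another contig with an interaction of the same sign. The share of such neighbours among all contigs tested was not computed, so 216 is not read as high or low. The files do not say whether such neighbours come from a common gene, so the number of contigs is not a number of genes.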
